A study of Mus musculus with 14 samples.

Results

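Antigen presentation by major histocompatibility complex (MHC) class II was read from 9 genes in the ileum mucosa of mice on a high-fat diet (HFD). The 9 genes were chosen by name, as the core of the class II pathway, from a deposited table of 54532 genes. All 9 passed the filter on low counts and were among the 13846 genes tested. They are the classical chains H2-Aa, H2-Ab1 and H2-Eb1, the invariant chain gene Cd74, the protease gene Ctss, the peptide-editing chains H2-DMa, H2-DMb1 and H2-DMb2, and the transactivator gene Ciita.

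The mice were male and came in 2 genotypes of 7 each. WT mice carried the NCoR1 flox/flox alleles without Cre. IKO mice carried the same alleles together with a Cre recombinase driven by the villin promoter, which acts in intestinal epithelial cells. Both genotypes received HFD for 15 weeks, and RNA was taken from scraped ileum mucosa with 1 library per mouse. The methods of the paper give an age of 7 to 8 weeks for mice put on chow or HFD, and a figure legend gives an older age. Which age holds for the sequenced mice is not stated.

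Class II molecules carry peptides from endocytosed proteins to the cell surface, where CD4 T cells read them. Dendritic cells, macrophages and B cells make them constitutively, and enterocytes of the small intestine make them as well, at levels that rise with interferon gamma. The alpha and beta chains assemble on the invariant chain, cathepsin S cuts this chain down to a short peptide, and H2-DM swaps that peptide for antigen. Transcription of the class II chains, H2-DM and the invariant chain depends on CIITA, a coactivator that does not bind DNA itself and is recruited by factors sitting on the X and Y boxes of the promoters.

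Ncor1 served as the check of the labels. It was at 134.7 ± 31.3 CPM in the 7 WT mice (mean ± SD, n = 7; CPM are counts scaled to a common library size with TMM factors) and at 50.6 ± 10.97 CPM in the 7 IKO mice (SD, n = 7), and the genotypes did not overlap (edgeR adjusted p = 0.00051). The libraries held 14749669 to 21557468 counts. The mitochondrial share of counts reached 50.3% in IKO 4 and 23.9% in WT 3, against 3.49% to 10.3% in the other 12. The samples are labelled as epithelial cells, but the scraped mucosa also held leukocyte RNA: Ptprc, the pan-leukocyte CD45 gene, was at 15.2 to 115.4 CPM in WT and 5.25 to 38.3 CPM in IKO mice. In such bulk RNA, fewer cells of a type and less RNA per cell cannot be told apart. Summed over 8 smooth muscle markers, WT 4 held 15165 CPM, against a WT median of 183.0.

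No difference between the genotypes was called for any of the 9 class II genes, which does not show that there was none. With edgeR's quasi-likelihood test and an adjusted p (Benjamini-Hochberg, over all tested genes) under 0.05, 0 of the 9 were called. Of all tested genes, 8.67% were called (4.38% higher and 4.28% lower in IKO). At that share, 0 of 9 is close to what any 9 tested genes would give, so the count does not set class II apart. At an unadjusted p under 0.05, 0 of the 9 passed, against 30.4% of all genes. DESeq2 also called 0 of the 9, with 17.9% of all genes called. The median log2 fold change of the 9 was -0.061, beside -0.091 over all tested genes. The genotypes overlapped for 9 of 9 members, which is near the share over all tested genes, of which 3.10% did not overlap. For 8 of the 9, the 95% confidence interval of the fold change lay inside a 2-fold change in either direction. The count stayed at 0 without IKO 4 and WT 3, without WT 4 and IKO 4, and without WT 1, WT 3 and WT 7.

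**Figure D1:**
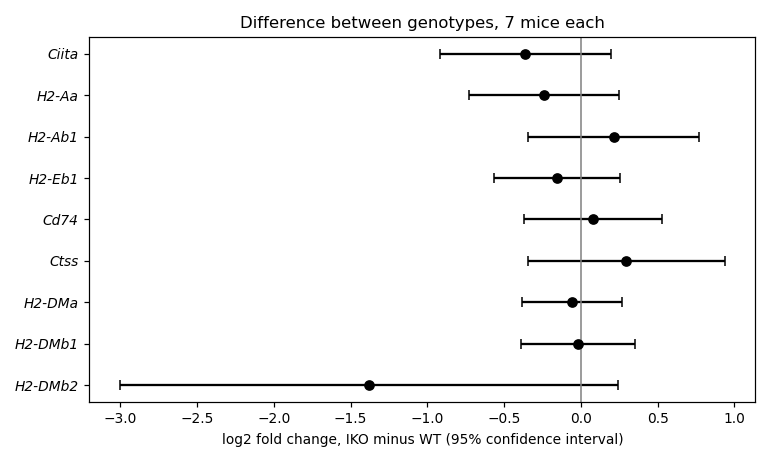
Log2 fold change of each gene (IKO minus WT, points) with its 95% confidence interval (bars), from the edgeR fit with 7 mice per genotype. Each interval crosses 0, and that of H2-DMb2 is the widest, from -3.004 to 0.24.

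Measured per length, the genes spanned a wide range. Median FPKM (counts per gene length, scaled between mice by the authors) over the 14 mice was 456.5 times higher for Cd74 than for H2-DMb2. In WT mice the order of median FPKM was Cd74 at 1425, H2-Aa at 478.7, H2-Ab1 at 463.3, H2-Eb1 at 384.4, Ctss at 98.9, H2-DMb1 at 66.6, H2-DMa at 40.8, Ciita at 5.42 and H2-DMb2 at 4.68. The ranges of the 3 classical chains overlapped in both genotypes, so their order is not separated by the spread of the mice. Ciita and H2-DMb2 overlapped as well. In IKO mice H2-Ab1, at 658.1, stood above H2-Aa, at 425.1, with overlapping ranges. Cd74 alone took 42.1% to 54.3% of the summed CPM of the 9 genes in a mouse.

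**Figure D2:**
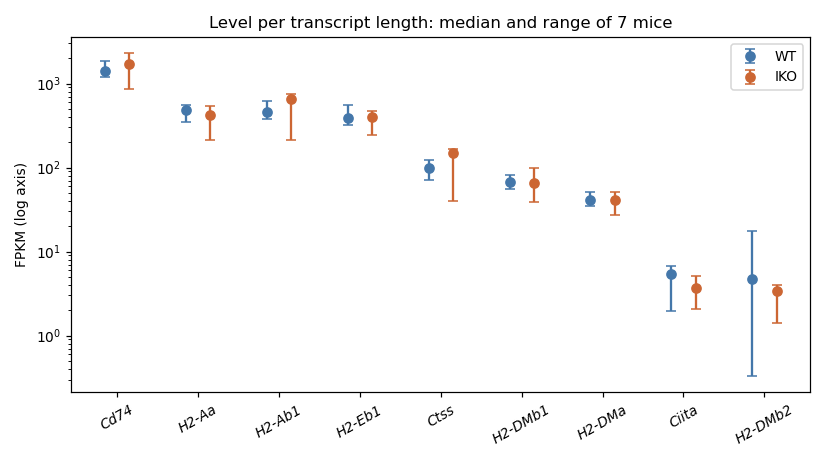
Median FPKM (points, log axis) and the range over 7 mice (bars) for each gene in WT and IKO, ordered by the WT median. The levels run from 1425 FPKM for Cd74 to 4.68 FPKM for H2-DMb2 in WT.

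The classical chains lie together on chromosome 17 (coordinates of the deposited tables, which the submitters' processing notes place on mm10). H2-Ab1, the I-A beta chain (17, 34263209 to 34269418, plus strand), was at 635.3 CPM in the lowest, 783.1 in the median and 1026 in the highest WT mouse. In IKO mice it was at 344.9, 1089 and 1207 CPM. Of the IKO mice, 5 were above the WT median, and IKO 4 and IKO 2 were below every WT mouse. The log2 fold change was 0.21 (SE 0.26, 95% interval -0.34 to 0.77, adjusted p = 0.61, edgeR). Without IKO 4 it was 0.36 (adjusted p = 0.25, in a range of 0.25 to 0.87 over the alternatives).

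H2-Aa, the I-A alpha chain (17, 34282744 to 34287827, minus strand), was at 658.6, 919.9 and 1089 CPM in the lowest, median and highest WT mouse. In IKO mice the values were 390.2, 798.8 and 1008 CPM, with IKO 4 and IKO 2 again below all WT mice. The log2 fold change was -0.24 (SE 0.23, 95% interval -0.73 to 0.25, adjusted p = 0.50, edgeR). H2-Eb1, the I-E beta chain (17, 34305877 to 34316199, plus strand), was at 386.2, 468.4 and 691.0 CPM in WT and at 283.8, 468.1 and 554.6 CPM in IKO mice. The medians of the genotypes were nearly equal and the log2 fold change was -0.15 (SE 0.19, adjusted p = 0.62, edgeR). An antisense gene, Gm20513, overlaps 2194 bases of H2-Eb1, and since the use of strand in counting is not stated, reads there cannot be assigned with certainty. The partner of H2-Eb1 is the I-E alpha chain, which the table lists only as the pseudogene H2-Ea-ps. That gene, looked up after its values were seen, had 4 reads in WT 7, 1 read in IKO 2 and 0 in the other 12 libraries.

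Since the I-A chains pair with each other, the level of H2-Aa was set against that of H2-Ab1 within each mouse. The log2 ratio averaged 0.16 ± 0.33 in WT mice and -0.23 ± 0.23 in IKO mice (SD, n = 7 each). WT mice ran from -0.20 in WT 7 to 0.67 in WT 3, and IKO mice from -0.57 in IKO 1 to 0.18 in IKO 4. The genotypes overlapped, with 4 IKO mice below the lowest WT mouse and 6 of 7 below the WT median. The difference was -0.40 (two-sided exact permutation test, p = 0.0239), and with each mouse left out in turn it stayed between -0.47 and -0.31 (p between 0.0035 and 0.0478). This is the smallest p of 8 such ratios to H2-Ab1, is not adjusted and does not reach 0.00625, the level of 0.05 divided by 8. The other 7 ratios had exact p-values of 0.167 to 0.987. Neither gene alone was called in the test above.

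**Figure D3:**
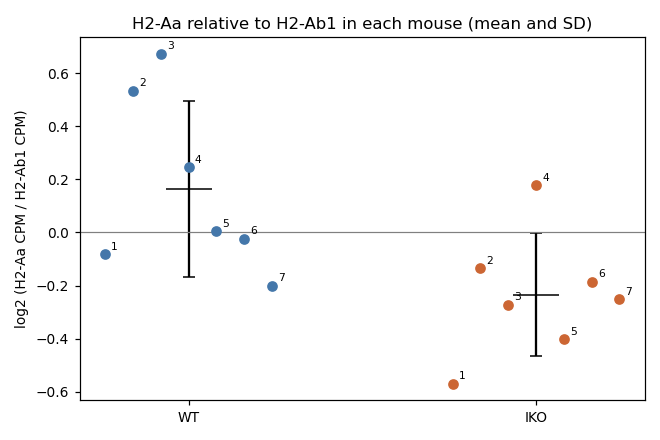
Log2 ratio of H2-Aa to H2-Ab1 CPM in each mouse (points, labelled with the mouse number), with the mean and SD of 7 mice per genotype (black). Of the IKO mice, 6 of 7 lie below the WT median, and IKO 4 lies at 0.18.

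Cd74 encodes the invariant chain, which holds new class II molecules until they reach the endosome. It was at 1731 CPM in the lowest, 2088 in the median and 2696 in the highest WT mouse, and at 1210, 2434 and 3174 CPM in IKO mice. The IKO mice spread on both sides of the WT range, with IKO 5 above it and IKO 4 below it. The log2 fold change was 0.080 (SE 0.21, adjusted p = 0.82, edgeR).

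Ctss encodes cathepsin S, which cleaves the invariant chain (chromosome 3, 95526786 to 95556403, plus strand). WT mice were at 99.4, 138.7 and 168.3 CPM, and IKO mice at 55.0, 202.8 and 229.5 CPM (lowest, median, highest). The IKO mice were split: 5 were above every WT mouse, with 229.5 CPM in the highest, while IKO 2 and IKO 4 were at 55.0 and 59.1 CPM, below every WT mouse. The log2 fold change was 0.30 (SE 0.30, 95% interval -0.35 to 0.94, adjusted p = 0.53, edgeR). It was 0.45 without IKO 2 (adjusted p = 0.25) and also 0.45 without IKO 4 (adjusted p = 0.26), in a range of adjusted p from 0.23 to 0.82 over the alternatives. The pseudogene Hmgb1-ps5 overlaps 557 bases of Ctss on the same strand.

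The H2-DM heterodimer edits the peptide in the groove. Its alpha chain gene H2-DMa (17, 34135182 to 34139101, plus strand) was at 58.5, 68.5 and 88.4 CPM in WT and at 44.2, 67.5 and 82.0 CPM in IKO mice. The beta chain gene H2-DMb1 (17, 34153072 to 34160230, plus strand) was at 84.0, 99.4 and 121.7 CPM in WT and at 57.4, 98.0 and 144.7 CPM in IKO mice. IKO 4 was the lowest mouse for both genes. The other IKO mice lay inside the WT range for H2-DMa. For H2-DMb1, IKO 7 stood above the WT range and IKO 2, at 83.9 CPM, just below it. Their log2 fold changes were -0.061 (SE 0.15, adjusted p = 0.82) and -0.018 (SE 0.17, adjusted p = 0.96, edgeR), and the sign of each turned in some alternatives, between -0.12 and 0.082 for H2-DMa and between -0.13 and 0.097 for H2-DMb1.

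The second beta chain gene, H2-DMb2 (17, 34143307 to 34151553, plus strand), varied widely among the WT mice. In WT mice it was at 31.4 CPM in WT 3, 31.3 in WT 7, 15.5 in WT 1, 8.22 in WT 4, 0.825 in WT 6, 0.733 in WT 5 and 0.580 in WT 2. In IKO mice it lay between 2.46 and 6.90 CPM with a median of 5.66. The WT mice thus spanned 54.2-fold and the IKO mice 2.81-fold, and all 7 IKO mice were below the WT median and above the 3 lowest WT mice. The log2 fold change was -1.38 (SE 0.77, 95% interval -3.004 to 0.24, adjusted p = 0.23, edgeR). The difference of mean log2 CPM was -0.082 (two-sided exact permutation test, p = 0.934). Without WT 1, WT 3 and WT 7 the fitted value turned to 0.87 (adjusted p = 0.48, in a range of 0.13 to 0.97 over the alternatives).

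As a share of H2-DMb1 per length, H2-DMb2 was between 0.48% and 30.03% in WT mice and between 2.17% and 7.14% in IKO mice. The genes are close copies: 72 of the 1334 windows of 150 bases in the longest coding H2-DMb2 transcript (5.40%) occur unchanged in H2-DMb1, so reads from those windows are uncertain between both. No other member shared a window of that length with another gene.

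**Figure D4:**
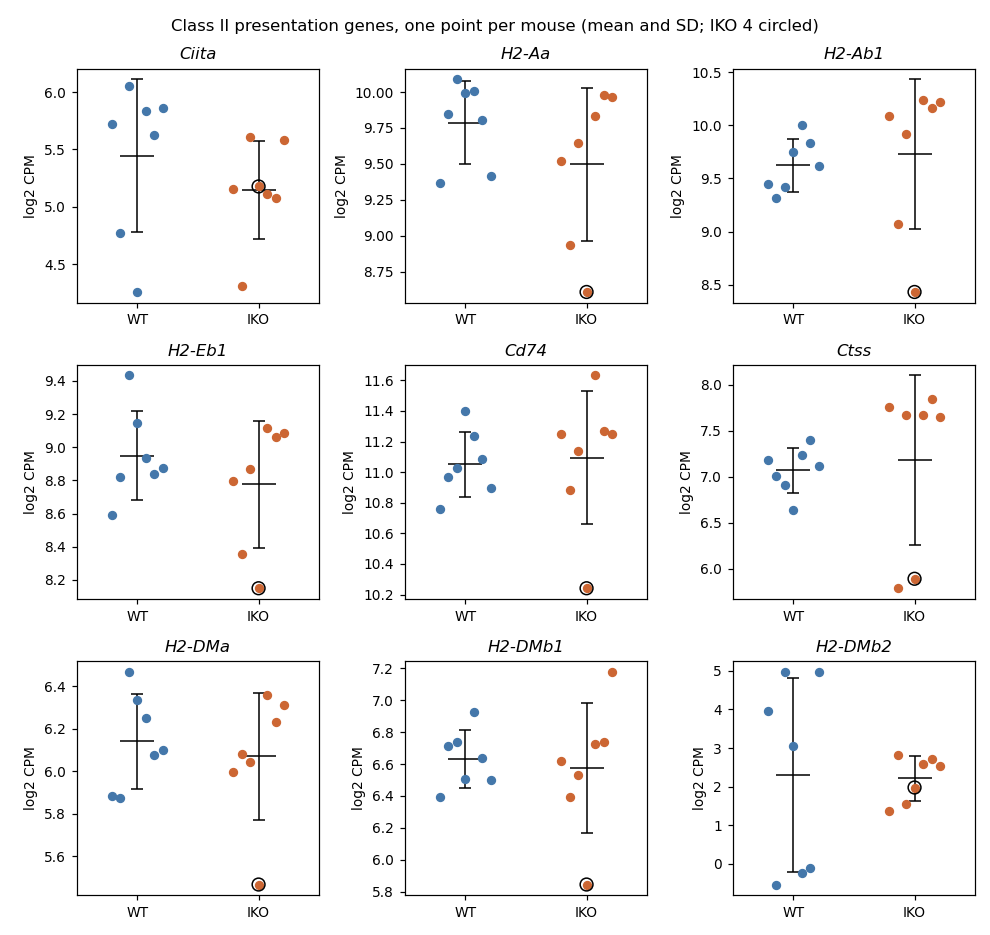
Log2 CPM of the 9 genes (y axis, one panel each) in every mouse (points), with mean and SD of 7 mice per genotype (black), and IKO 4 circled. IKO 4 is the lowest of the 14 mice for 6 of the 9 genes, and H2-DMb2 has the widest spread, in WT.

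B cells hold their own set of class II genes, among them H2-Oa and H2-Ob, which form the H2-DO inhibitor of H2-DM. Summed over 11 B cell markers, such as Ms4a1, Cd79a and Pax5, the level was 770.4 CPM in WT 3, 337.9 in WT 7, 152.6 in WT 1, 106.8 in WT 4 and 9.22 to 14.7 in WT 2, WT 5 and WT 6. IKO mice were between 16.5 and 75.7 CPM. The WT mice with high H2-DMb2 were thus also those with high B cell markers, and none of the 11 markers was at 0 in all mice. WT 1, WT 3 and WT 7 were the top 3 of the 14 mice for 9 of 11 B cell markers and for 5 of 9 tested markers of follicles and M cells. The same held for 3 of 6 tested dendritic cell markers, 1 of 13 macrophage and monocyte markers and 7 of 16 other genes of the class II pathway. Of the 9 members it held for 1, H2-DMb2. Ptprc too was highest in WT 7, WT 1 and WT 3, at 115.4, 63.9 and 63.2 CPM, so the pattern was not limited to B cell genes. The share over all tested genes was not computed. After the genotype means were subtracted, the B cell genes Cd79b and Fcer2a followed H2-DMb2 over the 14 mice with Pearson r of 0.99 and 0.97, as did the follicle chemokine gene Cxcl13 with 0.97. These genes were chosen for their likeness, so the values are descriptions. The part of B cells in the H2-DMb2 values was not tested.

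**Figure D5:**
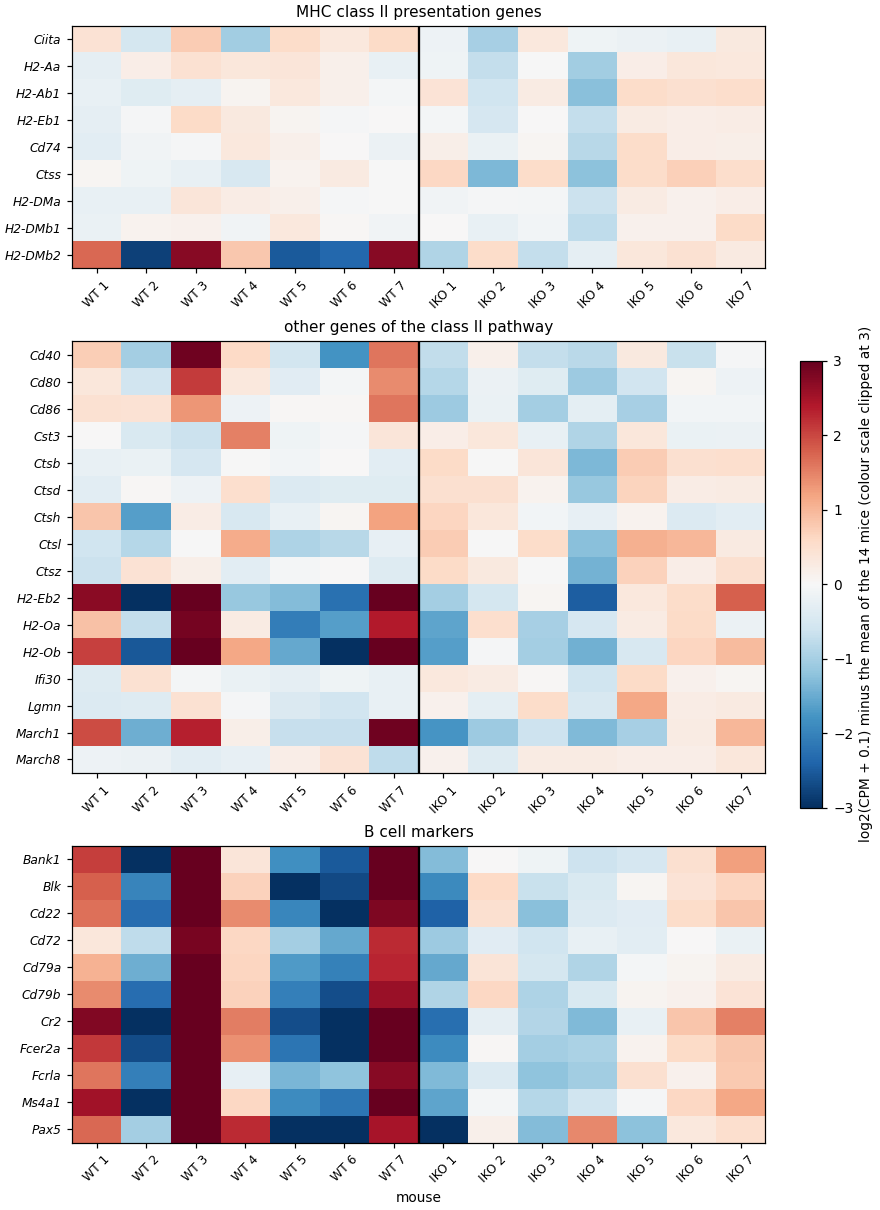
Log2(CPM + 0.1) of each gene minus its mean over the 14 mice (colour, clipped at 3 in either direction), for the 9 class II genes, 16 tested genes of the same pathway and 11 B cell markers, with mice in columns. WT 1, WT 3 and WT 7 are the 3 highest mice for H2-DMb2, H2-Ob, H2-Oa and H2-Eb2, and for none of the other 8 class II presentation genes.

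None of the 11 B cell markers was called either (edgeR), although 9 had an unadjusted p under 0.05, against 30.4% of all tested genes. All 11 had a value below 0, with a median log2 fold change of -2.17. Of all tested genes, 4.38% were called higher and 4.28% lower, so 1 call in a list of this size is near that share. Pax5, the B lineage factor, had -2.72 (SE 1.09, adjusted p = 0.11). The IKO values lay inside the WT range for the summed level. The dendritic cell list had 6 of its 12 markers tested and 0 called, with 1 at an unadjusted p under 0.05. All 6 had a value below 0, with a median log2 fold change of -0.99. The summed levels of the dendritic cell list were 12.1 to 51.8 CPM in WT and 7.25 to 19.3 CPM in IKO mice. The 9 tested follicle and M cell markers also all had a value below 0, with a median of -1.27 and 0 called. Of 13 tested macrophage and monocyte markers, 1 rose, the endotoxin coreceptor gene Cd14 (log2 fold change 0.77, SE 0.20, adjusted p = 0.033), and 0 fell. The Cd14 call was lost in 9 of 27 alternatives, among them the replicate block and the fit without WT 1, WT 3 and WT 7. Cd14 went against most of its list, in which 10 of the 13 had a value below 0, with a median log2 fold change of -0.31 and -1.32 for the lysozyme gene Lyz2 (SE 0.56, adjusted p = 0.13). The summed levels of the macrophage and monocyte markers were 165.0 to 392.3 CPM in WT and 156.2 to 348.4 CPM in IKO mice. Of 16 enterocyte markers, 1 rose, the fatty acid binding protein gene Fabp1 (log2 fold change 2.17, SE 0.55, adjusted p = 0.028, edgeR), and 0 fell. The value was above 0 for 14 of the 16 and below 0 for 2, with a median log2 fold change of 0.37. The summed levels of the enterocyte markers were 35469 to 111839 CPM in WT and 63929 to 98625 CPM in IKO mice. The Fabp1 call was lost in 8 of 27 alternatives, among them the replicate block and the fits without WT 4, without IKO 1, without IKO 2 and without WT 1, WT 3 and WT 7. None of 15 T cell and innate lymphocyte markers was called (edgeR), with 2 higher and 2 lower at an unadjusted p under 0.05. The value was below 0 for 11 of the 15 and above 0 for 4, with a median log2 fold change of -0.36. Ptprc had -1.41 (SE 0.50, adjusted p = 0.080, edgeR) and was not called.

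The other genes of the pathway gave 1 call in 16 tested, which is near the 4.28% of all tested genes called lower. Cd86, a costimulatory ligand for T cells, fell by 1.24 on the log2 scale (SE 0.36, adjusted p = 0.047, edgeR), and the call was lost in 15 of the 24 alternatives in which it was tested, among them the fit without WT 1, WT 3 and WT 7. Cd80, its relative, had -1.26 (SE 0.45, adjusted p = 0.083), and March1, the ubiquitin ligase that removes class II from the surface, had -1.89 (SE 0.72, adjusted p = 0.098). H2-Ob had -2.25 (SE 0.90, adjusted p = 0.11). The median of the 16 was -0.24. In each of these 4 genes the 3 highest mice were WT 1, WT 3 and WT 7. The lysosomal proteases of the list gave no call, with 0.49 for Ctsb (SE 0.25, adjusted p = 0.20) and 0.65 for Ctsl (SE 0.37, adjusted p = 0.24). The value was below 0 for 9 of the 16 and above 0 for 7.

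Ciita, the transactivator gene (chromosome 16, 10480059 to 10528418, plus strand), was at 19.0 CPM in the lowest, 52.7 in the median and 66.3 in the highest WT mouse. In IKO mice it was at 19.7, 35.4 and 48.8 CPM. All 7 IKO mice were below the WT median, while WT 4 and WT 2 were lower than most IKO mice. The log2 fold change was -0.36 (SE 0.26, 95% interval -0.92 to 0.19, adjusted p = 0.36, edgeR). The gene Dexi runs antisense over 25888 bases of the Ciita interval, with the same uncertainty on strand as above.

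The level of Ciita followed that of the other members only loosely. Over the 14 mice, after the genotype means were subtracted, its Pearson r with the 7 genes other than H2-DMb2 ranged from -0.099 to 0.47. Among those 7 genes, r over the 21 pairs had a median of 0.80 and a range of 0.43 to 0.92. Without IKO 4, the mouse with 50.3% of its counts on mitochondrial genes, the median of the 21 fell to 0.58, with a range of 0.010 to 0.87. The r of Ciita with the 7 genes then ran from -0.14 to 0.60, which overlaps that range widely. These values are descriptions, since all genes of a mouse share 1 library.

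The promoter windows of several members carry sequences matching the boxes through which CIITA is recruited. Promoter windows of RefSeq (GRCm38.p6, 250 bases before to 50 after the start) were matched for 6 of the 9 members, in 7 windows. The members without a match were H2-Ab1, Cd74 and Ciita. The windows of H2-DMa began at 34122582 and 34125268, upstream of the deposited start of the gene at 34135182. The sequence beside that deposited start was therefore not searched, and the lack of a box in H2-DMa covers only these windows. The window of H2-DMb2 began at 34144999, inside the deposited gene, which starts at 34143307. The H2-DMb1 stretch with its boxes, at 34153085 to 34153134, also lies after the deposited start of that gene at 34153072. All 50 of its bases fall in annotated untranslated sequence. Searched on both strands, TGATTGG, the core of the Y box bound by NF-Y, was found in 4 members (H2-Aa, H2-Eb1, H2-DMb1 and H2-DMb2) and in 7.82% of all 32851 windows. The stretch AACNNATG of the X box, bound by the RFX complex, occurred in 8.86% of all windows, and X followed by Y on the same strand, with starts 15 to 45 bases apart, in 0.0548% (18 windows). Among these 18 were H2-Eb1, H2-DMb1, H2-DMb2, H2-Eb2 and H2-Ob. The letters were chosen with these promoters in view, so the matches are a description and not a test.

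The stretches ending at the Y box are shown because genes with alike boxes, H2-Eb1 and H2-DMb2, differed in their pattern over the mice. Capitals mark the X stretch, where found, and the Y core. They lie at chr17:34287867-34287916 (minus strand) for H2-Aa, chr17:34305763-34305812 for H2-Eb1, chr17:34145114-34145163 for H2-DMb2 and chr17:34238803-34238852 for H2-Ob, the last 3 on the plus strand.
H2-Aa: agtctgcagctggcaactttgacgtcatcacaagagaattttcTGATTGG
H2-Eb1: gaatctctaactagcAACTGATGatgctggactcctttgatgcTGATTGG
H2-DMb2: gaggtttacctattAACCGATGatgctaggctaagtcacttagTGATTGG
H2-Ob: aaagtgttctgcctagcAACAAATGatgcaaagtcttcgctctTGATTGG
The starts of X and Y were 28 bases apart in H2-Eb1, 29 in H2-DMb2 and 26 in H2-Ob. H2-DMb1 had the same spacing of 29 as H2-DMb2, and the stretches of these genes were the same at 45 of 50 bases. Both stretches lie inside the deposited gene intervals and not before them. H2-DMb1 varied little over the mice, while H2-DMb2 varied 54.2-fold in WT.

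Upstream of Ciita, of 19 tested genes for the factors on these boxes and for interferon gamma signaling, 2 rose and 1 fell. Of all tested genes, 4.38% were called higher and 4.28% lower, and the list as a whole was not tested. Ifngr2, a chain of the interferon gamma receptor, rose by 0.75 (SE 0.16, adjusted p = 0.015), and Irf1, an interferon-induced factor that acts on the Ciita promoter, rose by 0.73 (SE 0.18, adjusted p = 0.024, edgeR). Creb1, which binds beside the X box, fell by 0.85 on the log2 scale (SE 0.23, adjusted p = 0.038), a call lost in 15 of 27 alternatives. Nfyc, a subunit of NF-Y, had 0.43 (SE 0.14, adjusted p = 0.071). The median of the list was -0.028. Ifng itself was too low to be tested.

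Of 18 interferon gamma response genes, 2 rose and 0 fell, beside 4.38% and 4.28% of all tested genes. The value was above 0 for 14 and below 0 for 4, down to -0.86, with a median log2 fold change of 0.42. The list as a whole was not tested. Ido1, which degrades tryptophan, rose by 1.28 (SE 0.29, adjusted p = 0.016), and Nos2, the inducible nitric oxide synthase, rose by 1.69 (SE 0.41, adjusted p = 0.022, edgeR). Ubd had 1.88 (SE 0.60, adjusted p = 0.059) and Cxcl9 had 0.93 (SE 0.33, adjusted p = 0.083). The calls of Ifngr2 and Ido1 were each lost in 2 of 27 alternatives, the replicate block and the fit without WT 1, WT 3 and WT 7. Those of Nos2 and Irf1 were lost in the same alternatives and in 1 and 2 more.

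Class I presentation, which displays peptides from the cytosol, had 1 of 20 genes called higher and 0 lower. That is near the 4.38% of all tested genes called higher. The immunoproteasome subunit gene Psmb10 rose by 0.65 (SE 0.19, adjusted p = 0.049, edgeR), a call lost in 22 of 27 alternatives. Its partners Psmb9 and Psmb8 had 0.64 (SE 0.20, adjusted p = 0.057) and 0.66 (SE 0.21, adjusted p = 0.057), and Psme2, an activator subunit, had 0.62 (SE 0.22, adjusted p = 0.081). The value was above 0 for 17 of the 20, with a median of 0.46, whereas 3 of the 9 class II members were above 0. The difference between class I and class II genes was not tested.

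The genes most like H2-Ab1 over the 14 mice, with genotype means subtracted, were Saraf, H2-T23, Clcc1, Epcam, Gcnt2, Ces2e, H2-K1, H2-D1, Nptn and Ptprh, with Pearson r from 0.94 to 0.95. Without IKO 4 their r lay between 0.84 and 0.91. Epcam marks epithelial cells, and H2-K1, H2-D1 and H2-T23 are class I heavy chains. None of the 10 was a marker of B cells, dendritic cells or macrophages in the lists used. These lists hold few of the tested genes, so most sets of 10 genes would hold none of their markers. The absence therefore does not bear on which cells made the H2-Ab1 RNA. The 10 genes were picked for their likeness, and the cell source was not tested.

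The level of H2-Ab1 was also set against 8 other measures over the 14 mice, each a single gene or the mean log2 level of a list, with permutation p-values adjusted over the 8. None passed. Enterocyte markers had the smallest p (Pearson r = 0.56, permutation p = 0.0358, adjusted p = 0.29; Spearman rho = 0.65, permutation p = 0.0131, adjusted p = 0.10). The r was 0.60 without the 2 mice farthest from the median in enterocyte level, -0.093 within WT and 0.90 within IKO mice, and 0.49 without IKO 4 and WT 3. For Ciita, r was 0.19 (permutation p = 0.511, adjusted p = 0.68) and rho -0.011 (permutation p = 0.976, adjusted p = 0.98), with r = 0.046 without the 2 farthest mice. For B cell markers, r was -0.12 (permutation p = 0.680, adjusted p = 0.68) and rho -0.11 (permutation p = 0.706, adjusted p = 0.81), with r = -0.025 without the 2 farthest mice. Interferon gamma response genes had r = 0.34 (permutation p = 0.238, adjusted p = 0.62) and rho = 0.43 (permutation p = 0.129, adjusted p = 0.52), with r = 0.099 without the 2 farthest mice. Without IKO 4 and WT 3 the latter r was 0.75 (permutation p = 0.00445, adjusted p = 0.036), and without WT 4 and IKO 4 it was 0.68 (adjusted p = 0.12). These r with mice left out also pool the genotypes, and they were not computed with genotype means subtracted.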

How the data were processed

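Ileum mucosa RNA from 14 mice was sequenced by the authors as paired reads of an NEBNext library, aligned with HISAT2 2.0.5 and assigned to genes with featureCounts 1.5.0-p3; the submitters' processing notes also name DESeq2 1.16.1 and mm10. The counts deposited by the authors are raw whole numbers. The deposited FPKM, as tested on the values, are the authors' counts per gene length divided by DESeq2 size factors times 1 constant. Strand use in counting is not given in the sources used here. Gene lengths came from the same table.

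Genotype was taken from the sample labels, and columns named KO hold the IKO mice. After a filterByExpr filter and TMM scaling, the 2 genotypes were compared by edgeR 4.0.16 (R 4.3.3) with its quasi-likelihood test, no covariate being used, and p-values were adjusted (Benjamini-Hochberg) over 13846 genes. CPM use the TMM factors, log2 CPM add a prior count of 2, and intervals are at 95%. Exact permutation tests were two-sided over all 3432 divisions of the mice, so that the smallest p is 0.00058. Relations across mice used random permutations (scipy 1.17.1). On simulated counts, the edgeR fit called 28.4% of 88 genes changed by 1 on the log2 scale and 82.2% of 101 changed by 2. Of its 114 calls, 5.26% were false. A change of 1 on the log2 scale was thus often missed in the simulation. Far fewer genes were changed there than the 1200 called in the data, so these shares need not hold for the data. The members and gene lists were chosen with earlier results of these data known. Besides the members, the text names the 4 genes with the smallest adjusted p of a list and the 10 genes most like H2-Ab1. Other genes named were picked after their values were seen, and not every list has its 4 printed.

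Same-numbered mice did not deviate together (correlations of -0.31 to 0.23, with 1 of 7 above 0.1), and the labels name no pairs, so the main fit used none. Such correlations cannot exclude that same-numbered mice shared a litter, a cage or a processing step. Alternatives were DESeq2 1.42.0, RLE normalization, scaling without mitochondrial genes, other filters, limma 3.58.1 on FPKM (pseudocounts of 1 and 0.1), limma-voom with quality weights, the number as a block, and mice left out. The fit without WT 1, WT 3 and WT 7 was chosen after seeing the data, for their B cell marker levels. Promoter sequences are from RefSeq on GRCm38.p6, and overlapping genes and transcripts from GENCODE on GRCm38. Protein sequences were not used here. One gene of the B cell list is not reported here and was left out of it. The replicates are separate mice.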

Additional observations from a re-analysis of the deposited data

Results flagged for a closer look

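In 54 groups of 7 mice (27 measures in both genotypes), the lowest or highest mouse stood apart from the rest in 5, by a gap over the range above Dixon's 95% critical value. Chance flags about 1 in 20 groups, or 2.7 of 54. H2-DMa was low in IKO 4 (gap over range 0.590), the mouse with 50.3% of its counts on mitochondrial genes. Ciita was low in IKO 2 (0.590), and so was the ratio of Ctss to H2-Ab1 (0.690). The ratio of H2-DMa to H2-Ab1 was high in WT 3 (0.580). The plasma cell markers had a mean log2 level in IKO 1 that stood apart from the other IKO mice (0.666).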

How the results depend on the processing

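Of the 9 members, 0 were called under every alternative run (8 were tested with at least 10 counts in every sample, which left out H2-DMb2), and the sign of the fold change held in all of them for H2-Aa, H2-Ab1, Ciita and Ctss. It turned for H2-Eb1 with limma-voom and quality weights (0.065) and without IKO 4 and WT 3 (0.028). For H2-DMa it turned with limma-voom (0.051), without IKO 4 and WT 3 (0.082) and without WT 4 and IKO 4 (0.053), and with single mice left out the value ran from -0.12 to 0.026, the latter without IKO 4. For H2-DMb1, whose value is near 0, it turned with DESeq2 (0.011), RLE (0.010), no filter (0.0095), limma-voom (0.078), without IKO 4 and WT 3 (0.097) and without WT 4 and IKO 4 (0.058), and the value ran from -0.13 to 0.083 with single mice left out. For H2-DMb2 it turned with limma-voom (0.39) and without WT 1, WT 3 and WT 7 (0.87), and for Cd74 without the latter 3 (-0.032), with -0.016 to 0.19 over single mice left out.

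Over all genes, 607 were called higher and 593 lower. The counts were 1186 and 1298 with DESeq2, 346 and 162 with no filter, 993 and 896 with limma-voom, 396 and 210 without WT 4 and IKO 4, and 153 and 147 without WT 1, WT 3 and WT 7. The lower count was 328, 317 and 160 with limma on FPKM (pseudocount 1, 0.1, and 1 with no filter) and 222 without IKO 4 and WT 3. With each mouse left out the counts ran from 335 to 684 higher and from 180 to 687 lower. With the replicate block they were 226 and 136. The labels name no pairs, and the block changed no call of a member. The cause of these shifts was not tested.

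With each mouse left out, the log2 ratio difference to H2-Ab1 ran from -0.68 to 0.29 for H2-DMb2, from -0.090 to 0.12 for Ctss and from -0.39 to -0.16 for H2-Eb1, which passed an unadjusted 0.05 only without IKO 4. The relation of H2-Ab1 with interferon gamma response genes passed only without IKO 4 and WT 3 (r = 0.75, both genotypes pooled). Precision is set by the spread of 7 mice and, for H2-DMb2, by counts as low as 9 in a library.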
